A study of Mus musculus with 18 samples.

Results

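Skin flaps of mice that lay on a D15L200 spacer were compared with Control flaps, which were left untreated, at day 7. The spacer is a printed mesh, made by near-field electrostatic printing, and the study printed several that differ in diameter and spacing to ask how the topology of a support affects cell differentiation in place. The comparison takes the 3 D15L200 and the 3 Control libraries, chosen by their labels, which are 6 of the 18 libraries of the series; the other 12 come from the D15L100, D15L150, D100L150 and D150L150 spacer groups, 3 each. RNA was measured by sequencing of total RNA from whole skin, and a gene's level is given in FPKM, fragments scaled to gene length and to the library's counted fragments. A gene was tested if 3 or more of the 18 libraries held it at 1 FPKM or above, as 13078 of 27743 genes did. D15L200 flaps had a spacer and Control flaps had none, so the presence of a spacer and the geometry of this spacer cannot be told apart in this comparison. Both groups shared the flap operation. The sources used here give no strain, genotype, age or number of animals, and no unit for the numbers in D15L200.

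Epidermis renews itself from a basal layer marked by keratins 5 and 14. Cells that leave this layer switch to keratins 1 and 10, join through desmosomes, and finally die into flattened corneocytes whose envelope of cross-linked proteins and ceramide lipids forms the skin barrier. Kallikrein proteases later cut the last desmosomes so that the corneocytes are shed. In a healing wound the epidermis at the margin instead makes keratins 6, 16 and 17. Beneath the dermis of mouse skin lies a sheet of skeletal muscle, the panniculus carnosus, which can be part of a flap.

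All 6 libraries carried the markers of skin. Krt14, the keratin of the basal layer, stood at 3892, 2717 and 4651 FPKM in D15L200 flaps, against 788, 1711 and 1692 FPKM in Control flaps. Col1a1, a main collagen of dermis, stood at 2984, 2872 and 1444 FPKM in D15L200 flaps and at 920, 2347 and 2693 FPKM in Control flaps. Acta1, the actin of skeletal muscle, was present in every library at 1327 to 3037 FPKM in D15L200 flaps and at 2923 to 5450 FPKM in Control flaps. Libraries held 28422344 to 35327357 counted fragments, recovered from the steps between FPKM values, so that depth differed by at most 1.24 times.

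A library in each group stood apart from the other 2. Control replicate 1 and D15L200 replicate 3 were the highest of the 6 in Il1b, a cytokine of early inflammation, which stood at 32.7, 44.3 and 678 FPKM in D15L200 flaps and at 564, 72.9 and 223 FPKM in Control flaps. The 16 neutrophil genes listed, of which 11 were tested, summed to 1453, 1127 and 10338 FPKM in D15L200 flaps and to 7724, 1190 and 3539 FPKM in Control flaps. Control replicate 1 was also very low in epidermal and sebaceous RNA. Krt10 stood at 4.003 FPKM there, against 49.6 and 56.4 FPKM in the other Control flaps, and Fa2h, a fatty acid hydroxylase of sebaceous glands and epidermis, was listed at 0 there, against 108 and 89.7 FPKM. Of the 187 genes that were higher in D15L200 flaps, 170 had their lowest Control value in Control replicate 1, and of the 17 lower genes 16 had their highest Control value there.

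**Figure D1:**
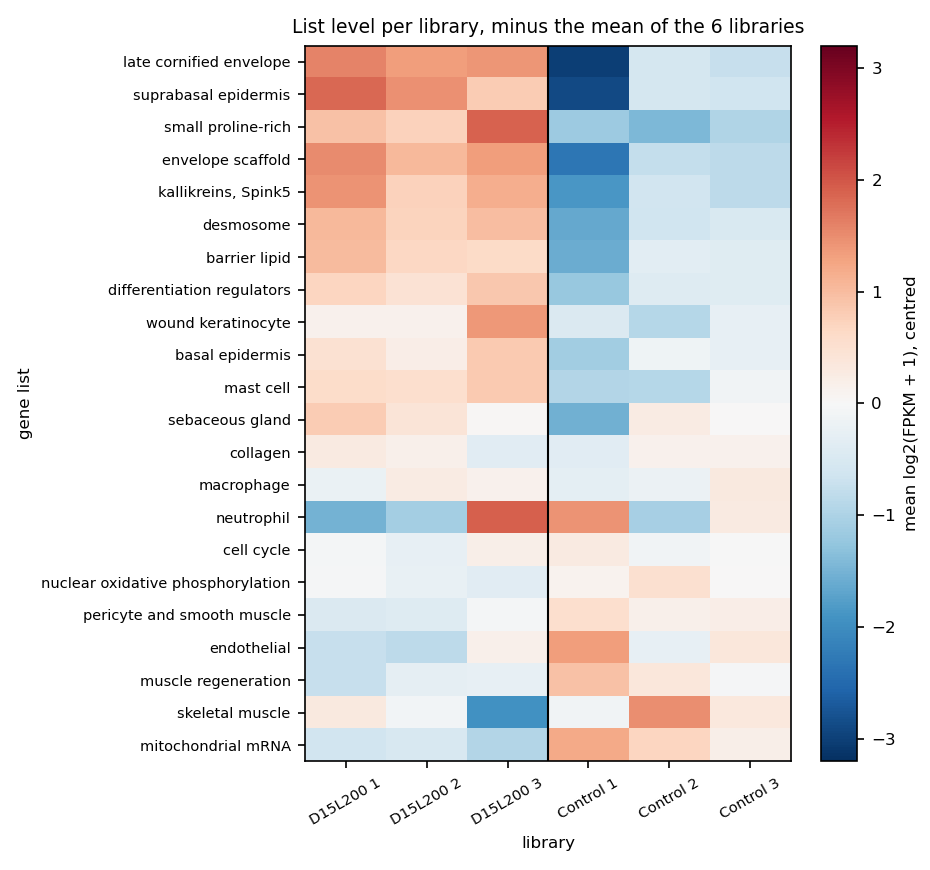
Mean log2(FPKM + 1) of the genes of 22 lists (rows) in the 3 D15L200 and the 3 Control libraries (columns), minus the mean of the 6 libraries, on a colour scale in log2 units. The epidermal lists at the top are high in all 3 D15L200 libraries and lowest in Control replicate 1 for the late cornified envelope genes, and neutrophil genes are high in D15L200 replicate 3 and Control replicate 1.

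D15L200 flaps had more RNA for epidermal differentiation and less mitochondrial RNA than Control flaps. By limma, with all 18 libraries in the fit and Benjamini-Hochberg adjustment over all genes tested, 187 genes (1.43% of those tested) were higher in D15L200 flaps and 17 (0.13%) were lower at an adjusted p under 0.05. Differences are on the log2(FPKM + 1) scale, which understates changes of low genes. Among the higher genes the median difference was 1.88, with a range of 0.50 to 3.69, and 81 exceeded 2. Among the lower genes the median was -1.14 and the range -0.51 to -1.85. Over all genes the median was -0.06 and 40.8% of the differences were positive. All 187 higher and all 17 lower genes had libraries that did not overlap between the groups, which follows in part from their choice by p in the same libraries. Over all genes tested, 11.2% had every D15L200 library above and 13.8% had every one below the Control libraries.

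The calls lay close to the threshold. The smallest adjusted p was 0.0298, and no gene passed with limma when D15L200 replicate 1, 2 or 3, Control replicate 1 or Control replicate 2 was left out, with 1525, 1706, 2222, 1250 and 2333 genes at an unadjusted p under 0.05 in these 5 fits. Without Control replicate 3, 160 genes were called, 139 higher and 21 lower, of which 141 were among the 204. Without Control replicate 1 the higher genes had a median difference of 1.63 and the lower genes of -1.03, against -0.05 over all genes.

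**Figure D2:**
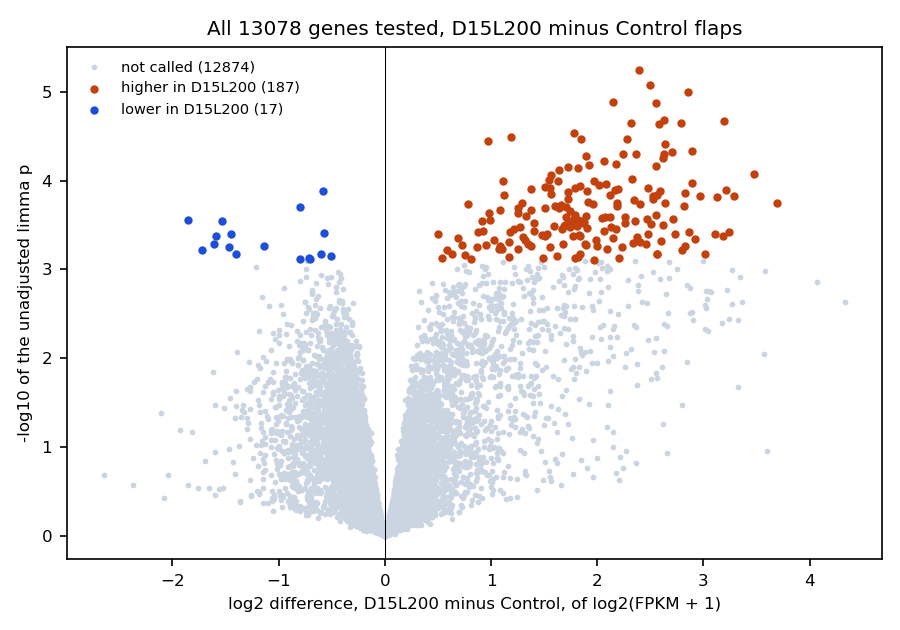
Log2 difference of log2(FPKM + 1), D15L200 minus Control (x axis), and -log10 of the unadjusted limma p (y axis) for the 13078 genes tested. The 187 higher genes (orange) reach 3.69 on the x axis, while the 17 lower genes (blue) reach -1.85.

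Several of the largest called differences were in genes of the upper epidermis. Lypd5, a Ly6/uPAR protein of the cell surface, had 91.8, 94.7 and 94.9 FPKM in D15L200 flaps, against 2.08, 8.06 and 13.1 FPKM in Control flaps. Its difference of 3.69 ± 0.73 (SE; limma, adjusted p = 0.0325) was the largest of the called genes, and the 3 D15L200 values lay within a narrow band while the Control values spread. Of the 18 tested genes of this family, 3 were called higher, against 1.43% of all genes, and none was called lower. In value, 13 differences were positive and 5 negative, with a median of 0.32 that was 0.19 without Control replicate 1. The others called were Lypd3, an adhesion protein of wound and upper epidermis, with 243, 209 and 389 FPKM in D15L200 flaps and 27.3, 55.9 and 60.2 FPKM in Control flaps, and Ly6d with 1016, 727 and 968 FPKM in D15L200 flaps against 95.5, 263 and 215 FPKM in Control flaps. Ly6m, a family member outside the list, had 10.8, 17.6 and 18.6 FPKM in D15L200 flaps, against 0.96, 1.55 and 1.28 FPKM in Control flaps. Its difference was 2.85 ± 0.43 (SE; limma, adjusted p = 0.0298). All 3 Control values were near 1, with Control replicate 1 the lowest. Like every other call, that of Ly6m was lost when Control replicate 1 was left out.

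Several genes of cell adhesion between keratinocytes were higher. Of 13 desmosome genes tested, 7 were called higher, against 1.43% of all genes, and none was called lower. The median difference was 2.05. In value 12 differences were positive and 1 was negative, at -0.61. That 1 gene had every D15L200 library below every Control library, as 13.8% of all genes did. Desmocollin Dsc1, a cadherin of the uppermost desmosomes, had 97.0, 69.8 and 63.4 FPKM in D15L200 flaps, against 3.94, 7.96 and 12.1 FPKM in Control flaps (difference 3.197 ± 0.51; limma, adjusted p = 0.0298). Its partner Dsg1b had 44.8, 33.3 and 50.1 FPKM in D15L200 flaps and 5.47, 7.72 and 10.4 FPKM in Control flaps. Both genes lay well apart between the groups. The plaque proteins that tie these cadherins to keratin were higher too. Plakophilin Pkp1 had 203, 168 and 233 FPKM in D15L200 flaps, against 19.5, 64.0 and 63.0 FPKM in Control flaps, and plakoglobin Jup had 172, 142 and 193 FPKM in D15L200 flaps against 39.6, 55.1 and 57.8 FPKM in Control flaps. Corneodesmosin Cdsn, which seals the desmosomes of the horny layer, had 317, 259 and 332 FPKM in D15L200 flaps, against 11.4, 38.7 and 39.9 FPKM in Control flaps (difference 3.47 ± 0.64; limma, adjusted p = 0.0319). Dsg2, a desmoglein of simple epithelia and deep layers, was not called, with 2.02, 1.81 and 1.64 FPKM in D15L200 flaps and 0.556, 1.45 and 1.203 FPKM in Control flaps. Without Control replicate 1 the median of the list was 1.55.

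The proteases that cut these junctions and their inhibitor were higher alongside them. Of 13 tested kallikreins and Spink inhibitors, 8 were higher, against 1.43% of all genes, and none was lower. The median was 2.17, or 1.89 without Control replicate 1. Klk5, which starts the kallikrein cascade of the horny layer, had 95.1, 76.6 and 81.5 FPKM in D15L200 flaps, against 3.07, 14.0 and 11.8 FPKM in Control flaps (difference 3.21 ± 0.61; limma, adjusted p = 0.0319). Klk10 had 157, 66.0 and 101 FPKM in D15L200 flaps, against 5.78, 12.0045 and 12.1 FPKM in Control flaps, and showed the widest spread of the family among the D15L200 libraries named here. Klk9 had 63.2, 63.1 and 89.9 FPKM in D15L200 flaps against 4.38, 14.0 and 10.4 FPKM in Control flaps, and Klk6 had 175, 165 and 234 FPKM in D15L200 flaps against 10.8, 55.0 and 46.4 FPKM in Control flaps. Spink5, which encodes the kallikrein inhibitor LEKTI, had 119, 78.1 and 75.8 FPKM in D15L200 flaps, against 5.34, 12.4 and 16.8 FPKM in Control flaps (difference 2.97 ± 0.58; limma, adjusted p = 0.0319). Protease and inhibitor genes thus lay on the same side of Control. Klk11, with an adjusted p of 0.0504 by limma, missed the threshold at 25.9, 22.1 and 24.7 FPKM in D15L200 flaps and 1.71, 10.4 and 9.22 FPKM in Control flaps.

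**Figure D3:**
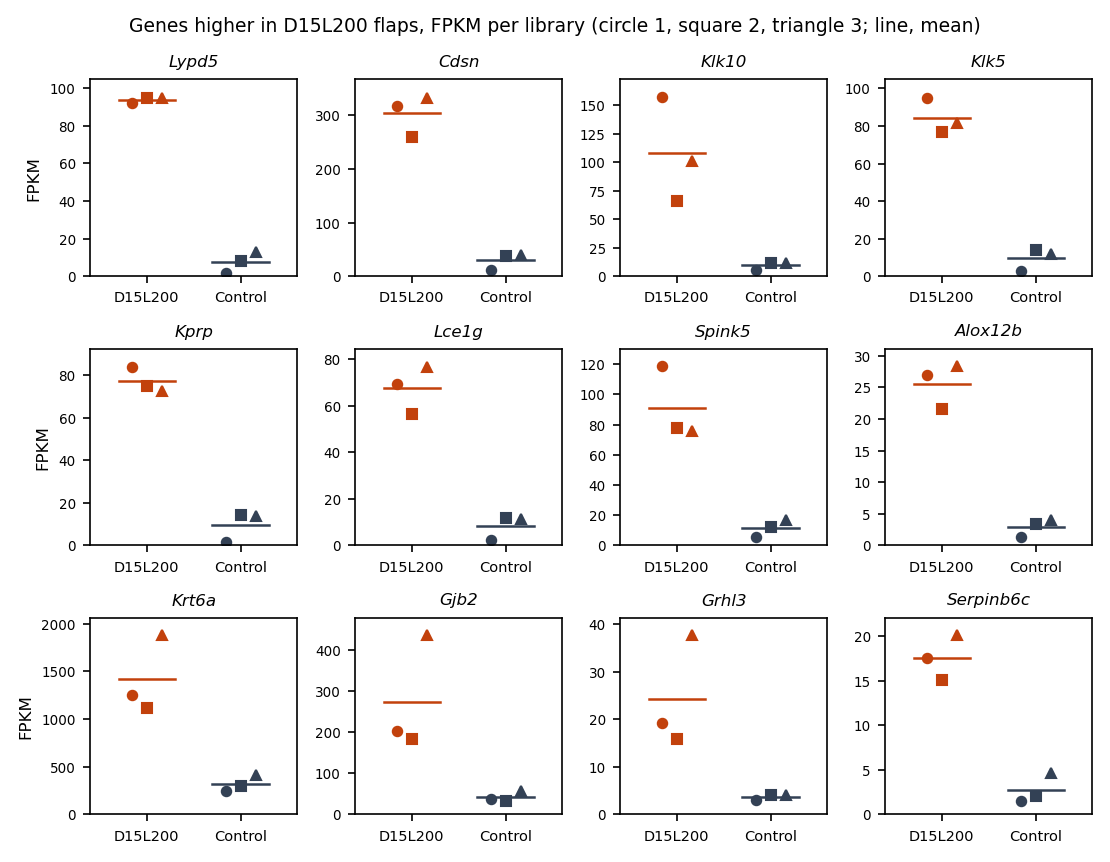
FPKM (y axis, from 0) of 12 called genes in the D15L200 libraries (left, orange) and Control libraries (right, grey), with replicates 1, 2 and 3 as circle, square and triangle and the group mean as a line. No library of a group reaches the other group in any panel, and Control replicate 1 is lowest in genes such as Lypd5 (2.08 FPKM) but not in Gjb2.

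Scaffold genes of the cornified envelope were higher in D15L200 flaps. All 16 tested scaffold genes had D15L200 libraries above every Control library, against 11.2% of all genes. Of the 16, 9 were called higher, against 1.43% of all genes. The median was 2.52, or 2.14 without Control replicate 1. Hornerin, Hrnr, had 48.6, 25.7 and 34.4 FPKM in D15L200 flaps, against 3.23, 4.30 and 4.18 FPKM in Control flaps (difference 2.89 ± 0.50; limma, adjusted p = 0.0314). The 3 Control values of this filaggrin-like gene lay close together, Control replicate 1 included. Repetin, Rptn, had 189, 159 and 129 FPKM in D15L200 flaps and 8.56, 31.8 and 15.8 FPKM in Control flaps, and Kprp had 84.2, 75.0 and 72.5 FPKM in D15L200 flaps against 1.49, 14.1 and 13.9 FPKM in Control flaps. Tgm1, a transglutaminase that cross-links the envelope, had 25.5, 25.7 and 46.6 FPKM in D15L200 flaps, against 6.68, 6.26 and 9.31 FPKM in Control flaps (difference 1.96 ± 0.39; limma, adjusted p = 0.0325). Cysrt1, a cysteine-rich envelope protein, had 90.7, 57.7 and 88.7 FPKM in D15L200 flaps and 4.84, 14.7 and 13.8 FPKM in Control flaps. Crct1, from the same gene cluster on chromosome 3 as Rptn, had 457, 296 and 475 FPKM in D15L200 flaps against 29.2, 75.5 and 71.5 FPKM in Control flaps.

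Several of the main envelope and keratin genes had larger differences but were not called. Loricrin, Lor, the bulk protein of the envelope, had 786, 515 and 599 FPKM in D15L200 flaps, against 11.2, 113 and 102 FPKM in Control flaps (difference 3.58 ± 0.87; limma, adjusted p = 0.0567). Krt10 had 678, 504 and 345 FPKM in D15L200 flaps, against 4.003, 49.6 and 56.4 FPKM in Control flaps (difference 4.33 ± 1.17; limma, adjusted p = 0.0826). Its partner Krt1 had 2187, 1913 and 1675 FPKM in D15L200 flaps against 19.99, 269 and 263 FPKM in Control flaps, with an adjusted p of 0.0653 by limma. The groups did not overlap in these 3 genes, and Control replicate 1 lay far below the other 2 Control libraries. The errors draw on the spread in all 18 libraries, and what made them wide was not tested. These 3 genes were named after their values were seen. Of 12 suprabasal genes tested, 3 were higher, against 1.43% of all genes. All 12 differences were positive, and the median of 2.74 was 1.91 without Control replicate 1. Dermokine, Dmkn, a secreted protein of the upper layers, had 1171, 907 and 813 FPKM in D15L200 flaps, against 41.3, 159 and 190 FPKM in Control flaps (difference 3.13 ± 0.61; limma, adjusted p = 0.0319). Calm4, a calmodulin-like protein of differentiating keratinocytes, had 2101, 1403 and 1894 FPKM in D15L200 flaps and 86.4, 419 and 347 FPKM in Control flaps.

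The late cornified envelope genes lay on one side of Control, yet few passed the test. All 21 tested Lce genes had D15L200 libraries above every Control library, against 11.2% of all genes. Only Lce1g and Lce1k were called higher, as were 1.43% of all genes. The median difference was 3.05, or 2.05 without Control replicate 1. Lce1g had 69.6, 56.6 and 76.9 FPKM in D15L200 flaps, against 2.17, 11.6 and 11.2 FPKM in Control flaps. Lce1k had 48.5, 33.6 and 41.5 FPKM in D15L200 flaps, against 0.527, 9.96 and 11.2 FPKM in Control flaps. The Lce1 genes are near-identical copies, so how their reads were shared among them is uncertain. Lce3e and Lce3f, from the branch of the family that is induced in wounded human skin, were low in both groups. Lce3e had 10.1, 11.8 and 8.91 FPKM in D15L200 flaps and 0.995, 2.33 and 0.585 FPKM in Control flaps, and its adjusted p of 0.0504 by limma missed the threshold.

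The small proline-rich genes, envelope proteins induced in stressed epidermis, gave 5 called higher of 13 tested, against 1.43% of all genes. Their median was 2.52, or 2.41 without Control replicate 1. Sprr1a had 801, 667 and 1320 FPKM in D15L200 flaps, against 121, 114 and 180 FPKM in Control flaps (difference 2.71 ± 0.56; limma, adjusted p = 0.035). Sprr1b had 460, 428 and 924 FPKM in D15L200 flaps, against 93.4, 76.8 and 146 FPKM in Control flaps. In both genes D15L200 replicate 3 was the highest library and Control replicate 1 was not the lowest. Sprr2a1 and Sprr2a3 were also called, at 9.03, 9.58 and 12.5 FPKM and at 59.5, 61.3 and 99.1 FPKM in D15L200 flaps, against 0.466, 1.26 and 1.27 FPKM and 6.87, 12.7 and 14.0 FPKM in Control flaps. These are near-identical copies, and their separate values are uncertain.

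Promoters of the called genes were read for short motifs, among them that of AP-1, the dimer of Fos and Jun proteins that is known to act on Sprr1 and other late epidermal genes. RefSeq promoters of build GRCm38, 250 bases before to 50 after the start, matched 134 of the 187 higher genes and 10425 of the genes tested, with 1 window taken a gene. The AP-1 letters TGANTCA, which read the same on either strand, were found in 20 of the 134 windows (14.9%) and in 604 of the 10425 (5.79%). The grainyhead letters AACCNGTT, read on both strands, were in 4.48% of the higher genes' windows and 1.80% of all, and the E-box CAGCTG was in 24.6% and 15.3%. The C/EBP letters TTNNGCAA were in 11.2% and 8.82%. Of the 12 motifs searched, GGGNGTGG lay at 22.4% and 23.6%, and ACGTG at 17.2% and 25.5%. The NF-kB letters were in 2.99% of the higher genes' windows and 6.94% of all. The ETS letters were in 0.75% and 2.08%, and the CRE letters in 2.24% and 3.09%. The p53 family letters lay at 16.4% and 15.6%, the CArG letters at 0% and 0.04%, and the remaining motif at 11.2% and 8.22%. The motifs searched thus lay on both sides. These shares are descriptions of letters in a window and were not tested. The 120 bases before the start are shown for the 4 higher genes with the largest differences that hold the AP-1 letters in that stretch, to show where the letters stand; capitals mark TGANTCA.
Rptn, chr3:93393579-93393698, plus strand: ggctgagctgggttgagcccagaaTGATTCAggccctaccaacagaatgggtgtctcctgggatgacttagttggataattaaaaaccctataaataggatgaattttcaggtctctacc
Dmkn, chr7:30763636-30763755, plus strand: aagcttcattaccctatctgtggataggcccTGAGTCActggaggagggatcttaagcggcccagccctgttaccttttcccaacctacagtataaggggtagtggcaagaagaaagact
Sprr1a, chr3:92485882-92486001, minus strand: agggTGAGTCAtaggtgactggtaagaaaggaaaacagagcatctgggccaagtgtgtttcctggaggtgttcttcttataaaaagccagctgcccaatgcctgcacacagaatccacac
Sprr1b, chr3:92438780-92438899, minus strand: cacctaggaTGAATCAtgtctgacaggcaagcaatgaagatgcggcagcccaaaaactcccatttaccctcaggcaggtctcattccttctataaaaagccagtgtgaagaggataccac
The letters begin at base -96 in Rptn, -89 in Dmkn, -116 in Sprr1a and -111 in Sprr1b, counted back from the start. Fosb, a component of AP-1, had 3.63, 11.4 and 24.97 FPKM in D15L200 flaps and 2.78, 0.847 and 1.41 FPKM in Control flaps. Fosb had the largest difference of the 20 immediate early genes tested, none of which was called. Their differences were 15 positive and 5 negative, from -0.67 to 2.16, with a median of 0.26. Fos itself overlapped between the groups.

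Enzymes of the barrier lipids were higher in 8 of 26 tested genes, against 1.43% of all genes, with none lower and a median of 1.71. Cers3, which makes the very long chain ceramides of the barrier, had 15.3, 11.2 and 13.7 FPKM in D15L200 flaps, against 1.56, 2.20 and 2.15 FPKM in Control flaps (difference 2.28 ± 0.38; limma, adjusted p = 0.0313). Degs2, which hydroxylates ceramides, had 10.5, 11.7 and 20.8 FPKM in D15L200 flaps and 0.916, 1.22 and 2.15 FPKM in Control flaps. Abca12, the transporter that loads lamellar granules with lipid, had 15.3, 11.7 and 11.2 FPKM in D15L200 flaps, against 0.516, 1.72 and 2.04 FPKM in Control flaps. The lipoxygenase Alox12b, which ties ceramides to the envelope, had 26.9, 21.6 and 28.3 FPKM in D15L200 flaps against 1.38, 3.35 and 4.07 FPKM in Control flaps. In these 4 genes every D15L200 library was several times any Control library. Elovl4, which lengthens the fatty acids of these ceramides, was not called, with 346, 219 and 194 FPKM in D15L200 flaps and 5.99, 182 and 133 FPKM in Control flaps. The list's median was 0.90 without Control replicate 1.

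Among regulators of differentiation, several were higher. Of 22 tested, 6 were higher, against 1.43% of all genes, and none was lower. All 22 differences were positive, and the median was 1.39, or 1.09 without Control replicate 1. Grhl3, a grainyhead factor needed for barrier formation, had 19.2, 15.9 and 37.7 FPKM in D15L200 flaps, against 3.08, 4.01 and 4.14 FPKM in Control flaps (difference 2.32 ± 0.43; limma, adjusted p = 0.0319). Zfp750, a factor of late differentiation, had 33.5, 30.1 and 39.5 FPKM in D15L200 flaps, against 3.18, 8.93 and 9.96 FPKM in Control flaps. Ovol1 had 16.2, 12.7 and 20.4 FPKM in D15L200 flaps and 2.16, 5.15 and 4.67 FPKM in Control flaps, and Hopx had 55.8, 45.6 and 71.3 FPKM in D15L200 flaps against 10.6, 16.2 and 16.6 FPKM in Control flaps. The 4 factors had group ranges far apart. Dlx3, a homeobox factor of hair and epidermis, had 7.03, 4.68 and 6.21 FPKM in D15L200 flaps, against 0.305, 1.18 and 1.25 FPKM in Control flaps, and was the only called gene of 7 tested hair genes. Foxn1 was low in both groups, at 1.38, 1.24 and 1.44 FPKM in D15L200 flaps and 0.200, 0.472 and 0.594 FPKM in Control flaps, and was not called.

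Some wound-type and basal epidermal genes were higher. Of 14 wound keratinocyte genes, 6 were called higher, against 1.43% of all genes, and none was called lower. In value, 9 of the 14 differences were positive and 5 were negative, the lowest at -0.54. The median was 1.16, or 1.10 without Control replicate 1. Krt6a had 1254, 1119 and 1885 FPKM in D15L200 flaps, against 241, 301 and 413 FPKM in Control flaps (difference 2.15 ± 0.33; limma, adjusted p = 0.0298). Krt6b had 1106, 958 and 1513 FPKM in D15L200 flaps, against 142, 132 and 348 FPKM in Control flaps; the 2 keratins are near copies and may share reads. Krt16, their binding partner, had 1218, 1332 and 1895 FPKM in D15L200 flaps and 211, 354 and 559 FPKM in Control flaps. Each of the 3 keratins was highest in D15L200 replicate 3 and in Control replicate 3 within its group. Connexin 26, Gjb2, a gap junction protein, had 204, 182 and 437 FPKM in D15L200 flaps, against 37.1, 33.7 and 56.6 FPKM in Control flaps (difference 2.59 ± 0.42; limma, adjusted p = 0.0298), and Gjb6 had 29.7, 27.7 and 56.4 FPKM in D15L200 flaps against 10.3, 6.17 and 11.9 FPKM in Control flaps. These were the 2 called of 9 connexins tested, against 1.43% of all genes. Of the 9 differences, 6 were positive and 3 were negative, the lowest at -1.28. Of 13 basal genes 2 were higher, Krt14 (difference 1.48 ± 0.32; limma, adjusted p = 0.0375) and Sfn. The median of the basal list was 1.02, and 0.60 without Control replicate 1. Sfn, the 14-3-3 protein of keratinocytes, had 708, 610 and 812 FPKM in D15L200 flaps and 152, 248 and 225 FPKM in Control flaps. Trp63, the master regulator of epidermis, was not called, at 20.2, 16.8 and 20.3 FPKM in D15L200 flaps and 5.02, 13.0 and 10.4 FPKM in Control flaps. In whole skin, more keratinocytes and more RNA per keratinocyte cannot be told apart for any of these genes.

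Secreted and defence genes of the epidermis were split. The counts of higher genes given here stand against 1.43% of all genes tested. Il36rn, the antagonist of interleukin 36, was the only called gene of 16 tested in the interleukin 1 family, with 81.7, 61.5 and 53.4 FPKM in D15L200 flaps, against 1.99, 11.7 and 13.2 FPKM in Control flaps (difference 3.01 ± 0.69; limma, adjusted p = 0.0462). The agonist Il36b had 52.2, 32.1 and 32.3 FPKM in D15L200 flaps and 2.49, 7.79 and 6.29 FPKM in Control flaps and missed the threshold at an adjusted p of 0.0513 by limma. Agonist and antagonist thus lay on the same side of Control, while Il1b overlapped between the groups. Of 19 antimicrobial genes, 3 were higher: Pglyrp3 had 6.72, 5.75 and 7.30 FPKM in D15L200 flaps against 0.521, 1.90 and 1.38 FPKM in Control flaps, Defb1 had 57.3, 42.7 and 74.2 FPKM in D15L200 flaps against 8.82, 18.3 and 17.98 FPKM in Control flaps, and Wfdc5 had 14.0, 11.8 and 11.9 FPKM in D15L200 flaps against 0.629, 2.91 and 3.65 FPKM in Control flaps. Among 15 clade B serpins 3 were higher. Serpinb6c had the smallest p of all genes, with 17.6, 15.1 and 20.1 FPKM in D15L200 flaps, against 1.52, 2.07 and 4.70 FPKM in Control flaps (difference 2.39 ± 0.34; limma, adjusted p = 0.0298). Serpinb5, known as maspin, had 138, 98.5 and 106 FPKM in D15L200 flaps and 19.4, 47.2 and 39.6 FPKM in Control flaps. Of 9 stefins, protease inhibitors of the cystatin family, only Csta1 was higher, at 99.6, 68.9 and 121 FPKM in D15L200 flaps, against 24.8, 24.0 and 34.7 FPKM in Control flaps. Cldn4, a tight junction protein, was the only gene called of 11 in its list, with 38.1, 27.7 and 65.4 FPKM in D15L200 flaps and 8.16, 7.21 and 7.95 FPKM in Control flaps. Differences were negative for 5 of the 16 interleukin 1 family genes, 6 of the 19 antimicrobial genes and 3 of the 15 serpins. So were 2 of the 9 stefins, the lowest at -1.85, and 2 of the 11 tight junction genes. Medians were 0.27, 0.98, 1.29, 1.36 and 0.93 in that order, and 0.55, 0.94, 0.92, 1.31 and 0.72 without Control replicate 1. In 1 antimicrobial gene every D15L200 library lay below Control, against 13.8% of all genes.

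Some of the called higher genes are neighbours in the genome. Of 1953 windows of 1 Mb that held a tested gene, 7 held at least 3 called higher genes, 34 of the 187 in all; clustering was not tested. The window on chromosome 3 that starts at 92000001 covers most of the epidermal differentiation complex, where 9 of 40 tested genes were called and 38 had a difference above 1. The window on chromosome 7 that starts at 43000001 holds the kallikreins, with 8 of 19 genes called. The keratin window on chromosome 15 that starts at 101000001 had 4 of 17, and the one on chromosome 9 that starts at 45000001 had 4 of 16. By chromosome, the share of tested genes called higher ran up to 2.66% on chromosome 3, against 1.43% overall. Positions are those of RefSeq on GRCm38.p6.

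Mitochondrial messenger RNA was lower. All 13 genes of the mitochondrial genome had a negative difference, and 9 were called lower, against 0.13% of all genes. The median of the 13 was -1.45, or -1.17 without Control replicate 1. Together they took 2.72, 2.43 and 2.00% of the counted fragments in D15L200 flaps, against 7.43, 6.23 and 4.19% in Control flaps. No D15L200 library reached the lowest Control library. The calls depended on the fit: with voom on the recovered fragments no gene was called lower, and with only the groups compared 1 was. ND1, a subunit of respiratory complex I, had 3195, 3160 and 3054 FPKM in D15L200 flaps, against 14185, 8742 and 6053 FPKM in Control flaps (difference -1.53 ± 0.32; limma, adjusted p = 0.035). ATP8, a subunit of ATP synthase, had 54.1, 59.0 and 32.8 FPKM in D15L200 flaps, against 333, 156 and 98.4 FPKM in Control flaps (difference -1.85 ± 0.39; limma, adjusted p = 0.035). COX1, the catalytic subunit of complex IV and the most abundant of them, had 8173, 6991 and 5841 FPKM in D15L200 flaps and 17608, 17139 and 11735 FPKM in Control flaps. Control replicate 1 was the highest library in these 3 genes, and the D15L200 libraries lay closer together than the Control libraries. With quantile scaling 12 of the 13 differences were negative and the median was -1.33, but ND1 had -0.62 and COX1 0.00. COX1 was the most abundant gene of all 6 libraries, and that scaling gives the top rank the same value in every library. The others called were ND2, ND4L, ND5, ATP6, COX2 and COX3, with differences of -1.40 to -1.72. ATP8 and ATP6 overlap on the mitochondrial genome, and nuclear copies of mitochondrial genes could share reads, so their separate values are uncertain. CYTB missed the threshold, with 4161, 3794 and 3113 FPKM in D15L200 flaps and 10044, 9641 and 6355 FPKM in Control flaps (limma, adjusted p = 0.0558).

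**Figure D4:**
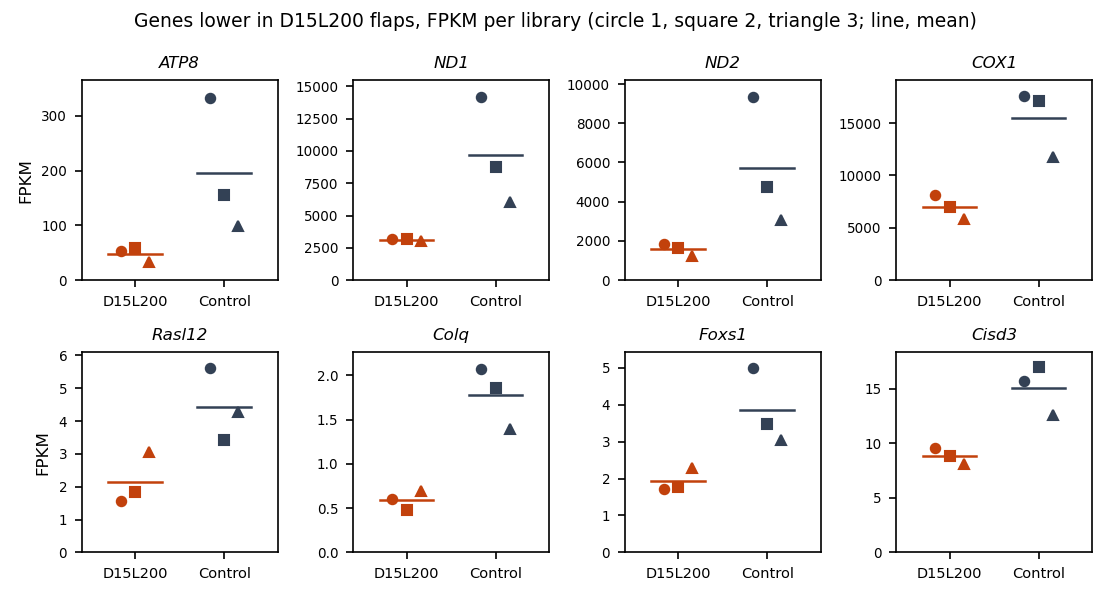
FPKM (y axis, from 0) of 8 genes called lower, in the D15L200 libraries (left, orange) and Control libraries (right, grey), with replicates 1, 2 and 3 as circle, square and triangle and the group mean as a line. Control replicate 1 is the highest library in all panels but Cisd3, as in ND2 at 9316 FPKM.

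The nuclear subunits of the same complexes were not called. Of 37 tested, 36 had a negative difference, 18 had D15L200 libraries below every Control library, against 13.8% of all genes, and the median was -0.37. Cox5b had 235, 227 and 234 FPKM in D15L200 flaps, against 327, 367 and 282 FPKM in Control flaps, a difference of -0.48 ± 0.20 that did not pass (limma, adjusted p = 0.237). Sdhc had 95.3, 89.2 and 81.2 FPKM in D15L200 flaps and 115, 136 and 110 FPKM in Control flaps. Of the called genes outside the mitochondrial genome, Cisd3, an iron-sulfur protein of mitochondria, had 9.57, 8.86 and 8.08 FPKM in D15L200 flaps, against 15.7, 17.0 and 12.6 FPKM in Control flaps (difference -0.71 ± 0.17; limma, adjusted p = 0.0489).

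Other lower genes were modest in level and change. Colq, the collagen-like tail of acetylcholinesterase at the neuromuscular junction, had 0.609, 0.483 and 0.695 FPKM in D15L200 flaps, against 2.08, 1.85 and 1.397 FPKM in Control flaps (difference -0.79 ± 0.16; limma, adjusted p = 0.0325). Rasl12, a Ras-like small GTPase, had 1.58, 1.82 and 3.06 FPKM in D15L200 flaps and 5.60, 3.43 and 4.27 FPKM in Control flaps. Foxs1, a forkhead factor, had 1.73, 1.76 and 2.30 FPKM in D15L200 flaps against 4.995, 3.47 and 3.05 FPKM in Control flaps. The gaps between the groups were narrow in these genes. Zbtb18, a transcriptional repressor, had 4.56, 5.52 and 5.46 FPKM in D15L200 flaps against 9.70, 7.95 and 6.97 FPKM in Control flaps. Morn2 and Plcb4, a phospholipase C, had differences of -0.58 and -0.51.

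Muscle and vessel genes were lower in value but none was called. All 30 skeletal muscle genes had a negative difference, with a median of -0.97. The median was -1.23 without Control replicate 1 and -0.62 when Control replicate 1 and D15L200 replicate 3 were both left out. In 7 of the 30 every D15L200 library lay below every Control library, against 13.8% of all genes. The list summed to 11578, 8583 and 3399 FPKM in D15L200 flaps, against 9772, 22391 and 9976 FPKM in Control flaps, so the groups overlapped and D15L200 replicate 3 held the least muscle RNA. When each library's level of these genes was added to the limma fit, 26 genes were called, all higher, of which 24 were among the 204. None of the 17 lower genes was called in that fit. Myogenin, Myog, a factor of regenerating muscle, had 25.9, 32.1 and 37.0 FPKM in D15L200 flaps, against 121, 61.5 and 51.0 FPKM in Control flaps (difference -1.18 ± 0.36; limma, adjusted p = 0.114). Musk, the kinase that organises the neuromuscular junction, had 1.06, 1.42 and 1.12 FPKM in D15L200 flaps and 4.41, 2.41 and 2.00 FPKM in Control flaps. All 14 genes of the regeneration list had a negative difference, with a median of -0.88 that was -0.57 without Control replicate 1. In 7 of them every D15L200 library lay below every Control library, against 13.8% of all genes. All 18 endothelial genes had a negative difference as well, with a median of -0.92 that was -0.47 without Control replicate 1. In 3 of the 18, Tek among them, every D15L200 library lay below every Control library, against 13.8% of all genes. The 18 genes summed to 266, 251 and 571 FPKM in D15L200 flaps and to 1382, 381 and 639 FPKM in Control flaps. Tek, the angiopoietin receptor, had 5.28, 6.16 and 5.40 FPKM in D15L200 flaps, against 12.05, 7.97 and 9.57 FPKM in Control flaps (limma, adjusted p = 0.112). Of 14 pericyte and smooth muscle genes, 10 had every D15L200 library below every Control library, against 13.8% of all genes, and the median was -0.63, or -0.50 without Control replicate 1. Lmod1, of smooth muscle, had 0.955, 1.38 and 2.00 FPKM in D15L200 flaps and 3.23, 2.67 and 3.22 FPKM in Control flaps (limma, adjusted p = 0.0563).

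Immune and stromal lists showed no called gene, apart from the epidermal cytokines given above. Mast cell proteases lay above Control in value. Cpa3, carboxypeptidase A of mast cells, had 27.2, 23.7 and 17.0 FPKM in D15L200 flaps, against 1.03, 2.91 and 5.65 FPKM in Control flaps (difference 2.63 ± 0.86; limma, adjusted p = 0.141). Cma1 had 45.6, 35.0 and 28.2 FPKM in D15L200 flaps and 1.90, 6.22 and 11.1 FPKM in Control flaps, and Tpsb2 had 26.7, 24.5 and 17.3 FPKM in D15L200 flaps against 1.80, 6.90 and 7.50 FPKM in Control flaps. With Mcpt4 these are 4 of 7 tested mast cell genes whose D15L200 libraries all lay above Control, against 11.2% of all genes, while Kit and Hdc, which other cells also express, had negative differences. The median of the list was 2.04, or 1.52 without Control replicate 1. Ccl21a, the chemokine of lymphatic vessels, had 45.5, 39.1 and 53.6 FPKM in D15L200 flaps, against 3.22, 9.31 and 15.5 FPKM in Control flaps (difference 2.38 ± 0.62; limma, adjusted p = 0.0721). It had the largest difference of 5 lymphatic genes tested, of which 3 were positive and 2 negative in difference. In only 1 of the 5, Ccl21a, did every D15L200 library lie above Control. The median of the list was 0.69, or 0.46 without Control replicate 1. The 18 macrophage genes overlapped between the groups in every gene, and their median of 0.19 turned to -0.07 without Control replicate 1. The 18 collagen genes likewise overlapped in every gene, and their median of 0.17 also turned to -0.07 without that library. Cell cycle genes had a median of -0.14 over 22 genes, or -0.01 without Control replicate 1. Sebaceous genes had a median of 0.67 over 19 genes, which was 0.19 without Control replicate 1, and Dgat2, which makes triglyceride, had 71.2, 52.7 and 41.4 FPKM in D15L200 flaps and 14.2, 35.5 and 25.6 FPKM in Control flaps. Heat shock genes had a median of -0.05 over 19, or -0.02 without Control replicate 1; Dnajb1 had 24.8, 21.99 and 28.9 FPKM in D15L200 flaps against 12.9, 14.3 and 15.2 FPKM in Control flaps, just short of the threshold (limma, adjusted p = 0.058).

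No gene was called between D15L200 flaps and the other spacer flaps. Against D15L150, no gene was called by limma (0% of genes tested), with 96 at an unadjusted p under 0.05. The smallest p belonged to Krt28, an inner root sheath keratin of hair, with a difference of -1.34 (95% interval -1.86 to -0.81; limma, adjusted p = 0.999), and next came Krt2, an upper-layer keratin, at -2.03 (95% interval -2.97 to -1.09). Ptch1, the hedgehog receptor, differed by -0.54 (95% interval -0.82 to -0.25). Against D15L100 no gene was called (0%), with 678 at an unadjusted p under 0.05. Lce3f differed by 2.42 (95% interval 1.32 to 3.52) and Slc6a20a, an amino acid transporter, by 1.39 (95% interval 0.73 to 2.06), both at an adjusted p of 0.849 by limma. Without D15L100 replicate 2, 1 gene passed against D15L100. Against the mean of the other 4 spacer groups no gene was called (0%), with 100 at an unadjusted p under 0.05, and Ndufb4b, a complex I subunit, differed by -0.51 (95% interval -0.84 to -0.19). These intervals are for genes picked for their small p and do not allow for that choice.

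The genes with calls against Control had wide intervals between spacers. For Lypd5 the difference of D15L200 from D15L150 was 0.07 (95% interval -1.51 to 1.64), and from D15L100 it was 1.83 (95% interval 0.26 to 3.40). For Krt6a these were 0.54 (95% interval -0.17 to 1.25) and 1.21 (95% interval 0.50 to 1.92), and for ND1 they were -0.35 (95% interval -1.04 to 0.33) and -0.85 (95% interval -1.54 to -0.16). Absence of a call thus does not show that the spacers act alike. The 187 genes, chosen on D15L200, had a median difference from Control of 0.93 in D15L100, 1.70 in D15L150, 1.88 in D15L200, 1.66 in D100L150 and 1.85 in D150L150 flaps. The 17 lower genes had medians of -0.44, -0.92, -1.14, -1.01 and -1.24 in the same order of groups. All 5 comparisons share the same 3 Control libraries, so these medians are not separate evidence.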

How the data were processed

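RNA from skin flaps was sequenced in 18 libraries, and the authors deposited 1 table of FPKM values for 27743 genes. The submitters' processing notes list fastp, HISAT2, HTSeq, R 3.2.0 and DESeq2, and mm10 as the build, without saying what each did; no annotation or strand setting is stated there. Because FPKM is relative to a library's own total, very abundant transcripts can shift all others. Groups and replicate numbers came from the sample titles. The labels do not tie libraries to animals, so p-values measure only the spread between libraries, which may be technical.

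Genes listed at 1 FPKM or more in 3 or more libraries were kept (13078), and log2(FPKM + 1) was fitted with limma 3.58.1 in R 4.3.3, using a mean for each group over all 18 libraries, with trended and robust empirical Bayes moderation. P-values were adjusted by Benjamini-Hochberg over the genes kept, and an adjusted p under 0.05 was a call. D15L200 was compared with Control, D15L150, D15L100 and the mean of the other 4 spacer groups. The fit was also run on simulated data with 200 changed genes. It recovered 66.8% of 2-fold and 92.4% of 4-fold changes, with 4.1% false among the genes called. Values there were drawn gene by gene, with no library standing apart. The simulation thus cannot show how the fit behaves with libraries such as Control replicate 1. Within a relative tolerance of 1e-07 every gene's values were whole multiples of a step, which gave the fragments per library; the gene lengths this implies were whole within 0.01 base in 96.9% of genes. No 2 libraries of either group were repeats of each other, at a chi-square per gene of 47.9 to 275.

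The genes and the 54 gene lists were chosen with earlier results of these data known. The rule for naming took the 20 largest differences in each direction among called genes whose libraries do not overlap (predicted genes left out), the 4 members of each list with the smallest p, and the 5 genes with the smallest p in each contrast between spacer groups; not all of these are described, and some results are not reported here. Acta1, Col1a1, CYTB, Dsg2, Elovl4, Fa2h, Il1b, Klk11, Krt1, Krt10 and Lor, and the genes of the closing observations other than Nccrp1, fall outside the rule and were chosen after their values were seen. Alternatives were a pseudocount of 0.1, no filter, quantile scaling, TPM scaling, the replicate number as a block, only the groups compared, the mean level of 30 skeletal muscle genes as a covariate, voom on the recovered fragments, and leaving out each library; leaving out Control replicate 1 and D15L200 replicate 3 together was added after seeing the data.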

Additional observations from a re-analysis of the deposited data

How the results depend on the processing

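For D15L200 minus Control, 204 genes were called, and 218, 216 and 239 with a pseudocount of 0.1, quantile scaling and TPM scaling, of which 198, 192 and 200 were among the 204. Only the groups compared gave 52, of which 51 were higher and 1 was lower. The muscle covariate gave 26 and voom on recovered fragments 10, all of them higher. With no filter on low values 0 genes were called, with 3154 at an unadjusted p under 0.05. Leaving out 1 library gave 0 to 160 genes, and leaving out Control replicate 1 and D15L200 replicate 3 together gave 0. With the replicate number as a block 0 genes were called, with 2069 at an unadjusted p under 0.05. Deviations of same-numbered libraries from their group means correlated at -0.52, 0.38 and -0.10. With 3 libraries a group these values cannot show whether the numbers pair the libraries, and the labels do not say. Against D15L100, no filter gave 2 genes and only the groups compared 1, and leaving out 1 library gave 0 to 1; against D15L150 and the mean of the other 4 spacer groups every setting run gave 0. Of 116 genes named, 80 were called. Under the 15 alternatives none of the differences of these 80 changed sign, apart from COX1 at 0.00 with quantile scaling. Because the libraries of called genes did not overlap between the groups, leaving out libraries or changing the pseudocount could not change a sign. The same holds for no filter and for only the groups compared, so in these settings a kept sign is no test. Leaving out 1 library, the difference of Col1a1 ran from -0.12 to 0.70 and that of Fa2h from -0.0045 to 3.38; neither gene was called, and both were negative without Control replicate 1. The cause of these changes was not tested. Depth differed by at most 1.24 times between libraries, and no alternative varied it.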

Other observations

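Of the 187 genes higher in D15L200 flaps, 119 stood in none of the 54 lists. Those described here were chosen after their values were seen. Aqp3, the water and glycerol channel of basal and spinous epidermis, had 195, 177 and 345 FPKM in D15L200 flaps, against 22.1, 68.0 and 54.8 FPKM in Control flaps (difference 2.36 ± 0.41; limma, adjusted p = 0.0314). Fabp5, the epidermal fatty acid binding protein, was among the most abundant, with 2257, 1583 and 2880 FPKM in D15L200 flaps and 524, 861 and 882 FPKM in Control flaps. The retinoid carriers Rbp2 and Crabp2 were both higher. Rbp2 had 98.4, 100 and 149 FPKM in D15L200 flaps, against 12.6, 31.3 and 31.2 FPKM in Control flaps (difference 2.25 ± 0.39; limma, adjusted p = 0.0314), and Crabp2 had 107, 67.6 and 89.0 FPKM in D15L200 flaps, against 16.6, 33.0 and 29.2 FPKM in Control flaps.

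Gsdmc and Gsdma encode gasdermins, pore-forming proteins of cell death. Gsdmc had 30.02, 32.8 and 30.1 FPKM in D15L200 flaps, against 1.53, 5.15 and 6.57 FPKM in Control flaps (difference 2.70 ± 0.47; limma, adjusted p = 0.0314), and Gsdma had 47.4, 36.2 and 38.1 FPKM in D15L200 flaps, against 2.21, 7.36 and 7.97 FPKM in Control flaps. Il22ra1, the receptor chain through which keratinocytes sense interleukin 22, had 5.78, 3.94 and 4.28 FPKM in D15L200 flaps, against 0.284, 1.35 and 0.926 FPKM in Control flaps. Scnn1a, a subunit of the epithelial sodium channel, had 7.18, 5.86 and 6.77 FPKM in D15L200 flaps and 0.459, 1.45 and 2.08 FPKM in Control flaps. Nccrp1 had 114, 108 and 109 FPKM in D15L200 flaps and 5.20, 23.4 and 26.2 FPKM in Control flaps. Endou, an endoribonuclease, had 61.9, 49.2 and 89.0 FPKM in D15L200 flaps, against 7.99, 8.92 and 12.3 FPKM in Control flaps (difference 2.63 ± 0.42; limma, adjusted p = 0.0298), with Control replicate 1 close to the other Control libraries. The adhesion protein Nectin4 had 31.1, 26.7 and 34.0 FPKM in D15L200 flaps and 2.56, 8.98 and 9.56 FPKM in Control flaps.

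Of the 54 lists, 19 held a called gene and 35 held none; the medians of those 35 ran from -0.97 for skeletal muscle genes to 2.04 for mast cell genes.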
